A study of Mus musculus with 8 samples.

Results

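Lysosomal hydrolases and membrane proteins were examined as 35 genes of the 31053 in the count table, named by symbol: 11 enzymes and activator proteins that act on lipids, 13 enzymes that act on glycans, 6 protein hydrolases, phosphatases and progranulin, and 5 proteins of the lysosomal membrane. The cathepsins were kept out of this set. All 35 genes had a row in the table, and the listing rule names genes by function and uses no measured value, although it was written with earlier results of these data known. Bulk RNA-seq of brown adipose tissue (BAT) was compared between 4 WT mice and 4 Ucp1Δ/Δ mice, which the labels call ATGLKO, all C57BL6/J, male and given in the labels as 10 weeks old. In Ucp1Δ/Δ mice Pnpla2, which encodes the triglyceride lipase ATGL, was deleted from floxed alleles by a Cre recombinase under the Ucp1 promoter, so that UCP1+ adipocytes lost the gene while the other cells of the tissue kept it. The paper gives a younger age for these mice than the labels do. The labels also call the samples stromal vascular fraction, the cells left after adipocytes are removed, but all 14 brown adipocyte markers examined had enough counts to test, Ucp1 averaged 2719 CPM (counts scaled to library size) in WT and 2152 CPM in Ucp1Δ/Δ mice, and the libraries are described here as BAT.

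Lysosomes are acidic organelles that break down lipids, glycans and proteins delivered by endocytosis, phagocytosis and autophagy. Their soluble enzymes are mostly carried there by mannose 6-phosphate receptors, and heavily glycosylated membrane proteins line the inside of the organelle. Macrophages, which digest what they engulf, are rich in lysosomes, and in adipose tissue lysosomal acid lipase gives them a route to degrade lipid that does not need ATGL. Many lysosomal genes carry an E-box of the CLEAR type near their start, which is bound by TFEB and its relatives of the MiT/TFE family.

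The letters GTCACGTG, the left 8 letters of the palindromic CLEAR consensus, were searched on both strands of RefSeq promoters (build GRCm38.p6), each running from 250 bases before to 50 bases after a RefSeq transcription start. A promoter was found for 32 of the 35 genes, and 8 of the 32 (25%) held the letters, against 2.55% of 27025 genes with a promoter. The shorter letters CACGTG, which every GTCACGTG contains, occurred in 9 of the 32 (28.1%) and in 8.09% of all genes. Since the CLEAR type is described for lysosomal genes, a higher share in this list is no independent result. The stretches of the 8 genes are given here because they hold the letters searched in genes whose levels follow. Each is written 5′ to 3′ on the strand of its gene with 16 bases on either side, and capitals mark the motif, which in Cln3 is matched on both strands over 10 letters:
Arsa: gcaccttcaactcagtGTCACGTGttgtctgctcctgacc
Cln3: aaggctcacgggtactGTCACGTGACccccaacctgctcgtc
Gla: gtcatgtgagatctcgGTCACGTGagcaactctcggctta
Glb1: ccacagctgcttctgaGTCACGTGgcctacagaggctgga
Lamp1: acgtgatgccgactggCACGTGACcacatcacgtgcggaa
Lgmn: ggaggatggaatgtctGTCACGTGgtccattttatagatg
Naglu: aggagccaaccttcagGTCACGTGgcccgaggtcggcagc
Sgsh: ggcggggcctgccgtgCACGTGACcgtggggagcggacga
These stretches lie at chr15:89477419-89477458 for Arsa (minus strand), chr7:126583334-126583375 for Cln3 (minus strand), chrX:134601178-134601217 for Gla (minus strand), chr9:114401012-114401051 for Glb1 (plus strand), chr8:13159117-13159156 for Lamp1 (plus strand), chr12:102439120-102439159 for Lgmn (minus strand), chr11:101070003-101070042 for Naglu (plus strand) and chr11:119355516-119355555 for Sgsh (minus strand). The fifth capital letter lay between 14 bases (Arsa) and 192 bases (Gla) before the RefSeq start. GENCODE, which gives the gene spans printed with the values, places the outermost start of some of these genes further upstream. Counted from that start, the letter still lay before it in 4 genes (Arsa, Gla, Glb1 and Lamp1) and after it in the other 4, by 1 base in Sgsh, 11 bases in Naglu, 674 bases in Lgmn and 2462 bases in Cln3. A match is a description of the letters, and binding was not measured here. No match was found in these windows for Grn, Gusb, Lipa or Man2b1, which says only that these letters are not in the windows searched.

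**Figure D1:**
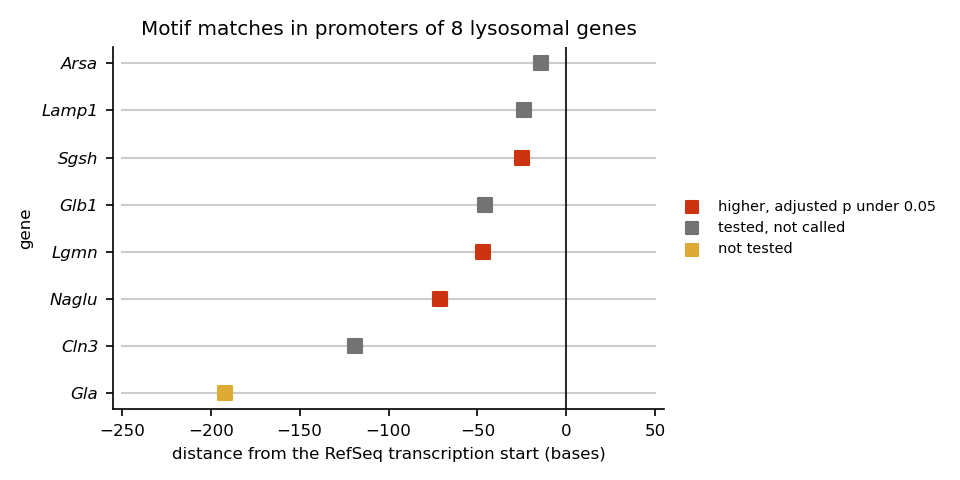
Distance of the motif from the RefSeq transcription start, in bases, for the 8 lysosomal genes whose promoter held GTCACGTG on either strand. Grey lines span the window searched, from 250 bases before to 50 bases after that start. Red squares mark genes higher in Ucp1Δ/Δ mice at an adjusted p under 0.05, grey squares genes tested and not called, and the yellow square a gene not tested. By the fifth capital letter, all 8 lay before the RefSeq start and 4 of them after the outermost GENCODE start, and 3 of the 8 are red.

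Depth was 2017697 to 3115956 counts for WT and 2240612 to 2941799 counts for Ucp1Δ/Δ libraries (two-sided exact permutation test of the difference in means, p = 0.629). Mitochondrially encoded genes took between 38.4% and 45.6% of the counts, and the 35 lysosomal genes took between 0.218% and 0.257% in WT and between 0.295% and 0.394% in Ucp1Δ/Δ mice. At this depth 3 counts correspond to between 0.963 and 1.49 CPM, and that floor covers counting error only. After removal of genes with low counts, 8930 genes were tested in edgeR by quasi-likelihood, with p adjusted over all of them by the Benjamini-Hochberg method, and that adjusted p is the one given throughout. Pnpla2 had a log2FC of -2.62 ± 0.17 (SE, n = 4 and 4 mice, adjusted p = 1.97e-07), with every Ucp1Δ/Δ mouse below every WT mouse. The labels do not say whether the numbered mice are littermates or shared a day of dissection.

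Of the 35 lysosomal genes, 32 were tested and 7 rose in Ucp1Δ/Δ mice at an adjusted p under 0.05. These were Lipa, Man2b1, Gusb, Naglu, Sgsh, Lgmn and Grn. Of these, Lgmn passed the low-count filter only through its counts in Ucp1Δ/Δ mice. The 7 make up 21.9% of the 32, against 13.3% higher, and 21% changed in either direction, among all genes tested. No lysosomal gene was lower, where 7.63% of all genes were. At an unadjusted p under 0.05, 12 of the 32 lay above 0, beside 18.3% of all genes, and 2 (Galc and Arsb) below 0, beside 14.3%. Past a log2FC of 1 there were 4 genes, Man2b1, Gusb, Lgmn and Grn, against 9.56% of all genes, and none was below -1, where 2.54% of all genes were. At an adjusted p under 0.01, 5 genes were higher (Lipa, Man2b1, Gusb, Lgmn and Grn), beside 8.72% of all genes. The median log2FC over the 32 was 0.05, beside -0.01 over all genes tested, with 18 genes above 0 and 14 below. The set was therefore uneven, with a few genes well above their WT level and a median near 0. Gla, Manba and Galns had too few counts to be tested. With each mouse left out in turn, between 5 (without Ucp1Δ/Δ replicate 2) and 9 (without WT replicate 2) genes were higher. Scaling by total counts only moved the median of all genes to 0.13 and called 12 of the lysosomal genes higher, with 78.5% of all calls upward. A total of 12 uncalled genes with log2FC near 0 changed sign in at least 1 fit, so no direction is read from them.

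**Figure D2:**
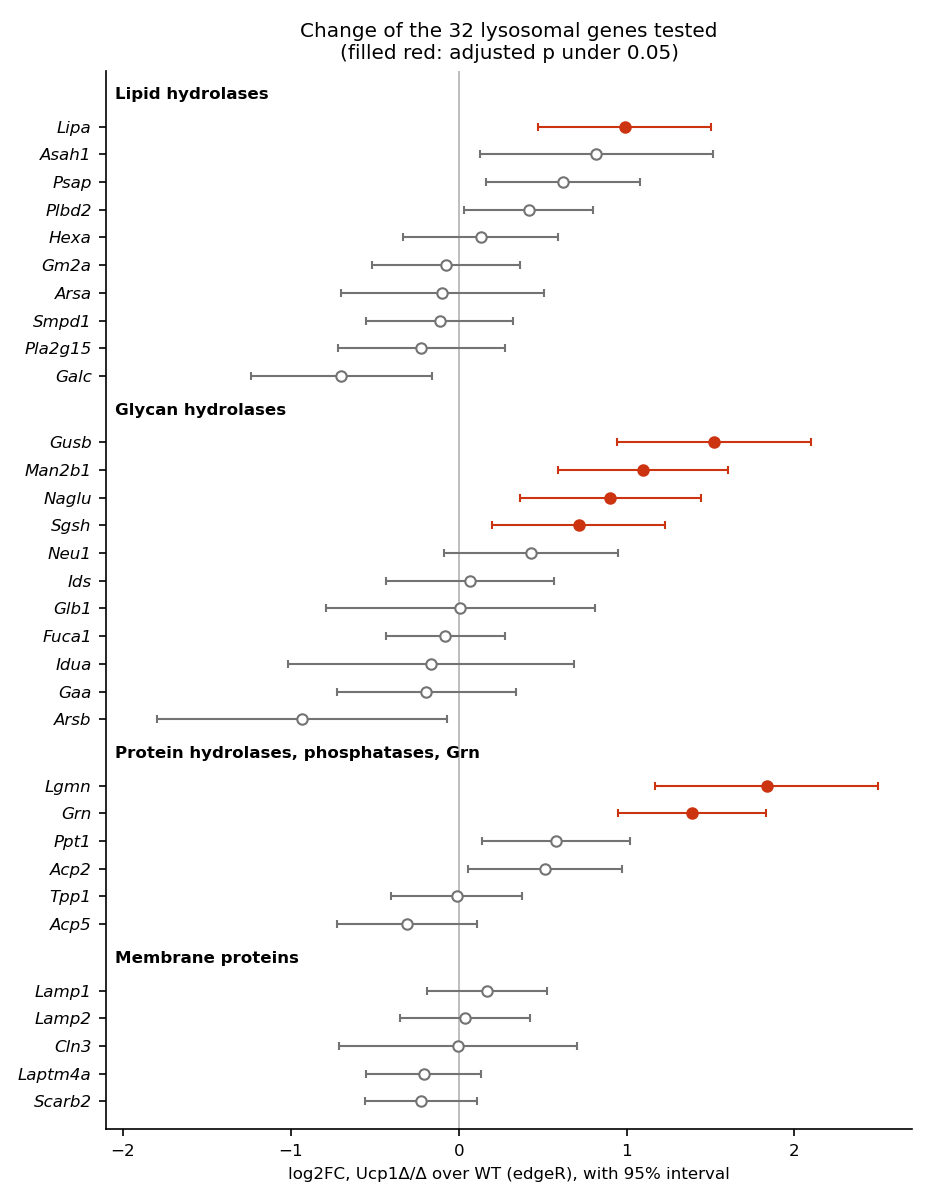
The log2FC of the 32 lysosomal genes tested, Ucp1Δ/Δ over WT, with 95% intervals from edgeR (n = 4 mice per genotype), by role. Filled red circles mark the 7 genes with an adjusted p under 0.05. All 7 lie right of 0, 2 of them in the protein group, 4 in the glycan group and 1 in the lipid group, and no membrane protein is among them. Tested genes numbered 6, 11, 10 and 5 in these groups, and 13.3% of all genes tested were higher.

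Summed over the 35 genes, the level was 2500 ± 246 CPM in WT and 3214 ± 321 CPM in Ucp1Δ/Δ mice (SD, n = 4), a ratio of 1.29, and the genotypes did not overlap (2254 to 2749 against 2839 to 3604). Most of the difference between the sums lay in Grn and Psap. Without them the sum was 1898 ± 256 CPM in WT and 2037 ± 116 CPM in Ucp1Δ/Δ mice, and the ranges overlapped. The 7 genes that rose summed to 364 ± 88 CPM in WT and 884 ± 82.7 CPM in Ucp1Δ/Δ mice, and the other 28 to 2136 ± 165 and 2330 ± 274 CPM. The 7 were picked by their rise in these same mice, so their sums give its size and no further evidence of it.

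Among the genes acting on lipids, 1 of 10 tested rose (10%, near the 13.3% higher among all genes tested). It was Lipa (ENSMUSG00000024781, chromosome 19, 34492318 to 34527474, minus strand), which encodes lysosomal acid lipase, the enzyme that cleaves cholesteryl esters and triglycerides at acid pH. Its level was 54.0, 127, 83.8 and 62.3 CPM in WT replicates 1 to 4 and 161, 147, 136 and 206 CPM in Ucp1Δ/Δ replicates 1 to 4. The lowest Ucp1Δ/Δ mouse stood just above the highest WT mouse, replicate 2, which was itself well above the other WT mice. The difference was log2FC = 0.99 ± 0.24 (SE), adjusted p = 0.00829, a fold of 1.98 that left it just under the log2FC of 1.

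Psap (ENSMUSG00000004207), the precursor of the saposins that help hydrolases reach sphingolipids, was measured at 361, 263, 408 and 446 CPM in WT and 545, 805, 487 and 433 CPM in Ucp1Δ/Δ mice. Ucp1Δ/Δ replicate 2 was by far the highest, and replicate 4 lay below the highest WT mouse. The test gave log2FC = 0.62 ± 0.22 (SE), adjusted p = 0.0532, above the threshold. Asah1 (ENSMUSG00000031591), acid ceramidase, ran from 3.04 to 13.9 CPM in WT, with values of 11.2, 13.9, 8.01 and 3.04 CPM, and was 16.3, 18.0, 18.0 and 11.6 CPM in Ucp1Δ/Δ mice. WT replicate 4 was far below the rest and Ucp1Δ/Δ replicate 4 fell within the WT range, and the gene was not called (log2FC = 0.82 ± 0.33 (SE), adjusted p = 0.0889). Galc (ENSMUSG00000021003), which removes galactose from galactosylceramide, pointed the other way, at 14.8, 10.3, 18.0 and 13.7 CPM in WT and 9.20, 7.47, 7.52 and 11.2 CPM in Ucp1Δ/Δ mice. WT replicate 2 overlapped with Ucp1Δ/Δ replicate 4, and the difference missed the threshold (log2FC = -0.70 ± 0.25 (SE), adjusted p = 0.0629). These 3 genes depended on single mice in both directions. Psap was higher without WT replicate 4 (adjusted p = 0.0318, edgeR) or Ucp1Δ/Δ replicate 4 (adjusted p = 0.046), but without Ucp1Δ/Δ replicate 2 its log2FC was 0.41 (adjusted p = 0.219). Asah1 was higher without WT replicate 2 (adjusted p = 0.029), but without WT replicate 4 its log2FC was 0.54 (adjusted p = 0.161). Galc was lower without WT replicate 2 (adjusted p = 0.025), but without WT replicate 3 its log2FC was -0.56 (adjusted p = 0.201).

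Plbd2, a phospholipase B-like protein, was higher in every Ucp1Δ/Δ mouse (78.1 to 87.7 CPM) than in any WT mouse (43.9 to 74.5 CPM), but was not called (log2FC = 0.42 ± 0.18 (SE), adjusted p = 0.119). The remaining genes of the group were not called and their genotypes overlapped. They were Pla2g15, the lysosomal phospholipase A2, with a log2FC of -0.22, Smpd1, acid sphingomyelinase, at -0.11, Arsa, the arylsulfatase that acts on sulfatide, at -0.10, Hexa, the alpha subunit of beta-hexosaminidase, at 0.13, and Gm2a, the activator that presents ganglioside to it, at -0.08. The 95% intervals of these 5 reached no further than -0.72 (Pla2g15) and 0.59 (Hexa).

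Gla, alpha-galactosidase A, which clears globotriaosylceramide, was removed by the filter with between 1 and 4 counts in WT mice. Its level was 1.02, 0.448, 1.34 and 1.52 CPM in WT and 3.54, 6.85, 2.09 and 4.29 CPM in Ucp1Δ/Δ mice. All Ucp1Δ/Δ mice were above all WT mice, with most WT values at or near the floor of 3 counts. With a filter that kept genes with at least 1 count in any mouse, its log2FC was 1.89 (adjusted p = 0.0111, edgeR), and with DESeq2's Wald test 1.92 (adjusted p = 0.0406).

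Among the glycan hydrolases, 4 of 11 tested were higher (36.4%, beside 13.3% higher among all genes tested), and 2 without Ucp1Δ/Δ replicate 2. Gusb (ENSMUSG00000025534, chromosome 5, 129989011 to 130003049, minus strand), beta-glucuronidase, was measured at 5.61, 11.6, 8.35 and 10.1 CPM in WT and 24.4, 36.7, 18.4 and 22.7 CPM in Ucp1Δ/Δ mice. No values overlapped, and Ucp1Δ/Δ replicate 2 was the highest. The difference was log2FC = 1.52 ± 0.27 (SE), adjusted p = 0.000841.

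Man2b1 (ENSMUSG00000005142, chromosome 8, 85083270 to 85098282, plus strand), the lysosomal alpha-mannosidase that trims N-glycans, stood at 15.8, 23.7, 13.4 and 22.8 CPM in WT and 41.4, 53.8, 30.9 and 34.3 CPM in Ucp1Δ/Δ mice. The genotypes were again apart, with Ucp1Δ/Δ replicate 2 highest, and the test gave log2FC = 1.10 ± 0.24 (SE), adjusted p = 0.0036.

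Naglu (ENSMUSG00000001751) and Sgsh (ENSMUSG00000005043) encode enzymes of heparan sulfate breakdown, an N-acetylglucosaminidase and a sulfamidase, and both hold GTCACGTG in the stretches given above. Naglu was 5.61, 8.06, 6.68 and 7.60 CPM in WT and 13.8, 15.9, 12.1 and 10.3 CPM in Ucp1Δ/Δ mice, without overlap (log2FC = 0.90 ± 0.25 (SE), adjusted p = 0.0185). Sgsh was 7.14, 12.1, 13.7 and 10.1 CPM in WT and 19.1, 18.4, 20.5 and 13.7 CPM in Ucp1Δ/Δ mice. Its lowest Ucp1Δ/Δ mouse, replicate 4, was barely above the highest WT mouse, and it passed narrowly (log2FC = 0.71 ± 0.24 (SE), adjusted p = 0.0465). The call of Naglu was lost in 4 of the 17 other fits, by DESeq2's Wald test (adjusted p = 0.0522) and without WT replicate 1 (adjusted p = 0.0562, edgeR), WT replicate 3 (0.0564) or Ucp1Δ/Δ replicate 2 (0.0644). The call of Sgsh was lost in 11 of them, among these DESeq2's Wald test (adjusted p = 0.103) and 6 of the 8 fits without 1 mouse, of which that without WT replicate 1 gave the highest value (adjusted p = 0.132, edgeR). The exons of Sgsh overlap those of Card14 on the opposite strand, which had 0 counts in every mouse. In all, exons of 13 of the 35 genes overlap another gene on the opposite strand, and since strand use in counting was not given, reads of such pairs cannot be told apart.

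The other glycan hydrolases tested were not called and overlapped between genotypes. Neu1, the sialidase, had a log2FC of 0.43, Ids, iduronate sulfatase, 0.07, Glb1, beta-galactosidase, 0.01, Fuca1, alpha-fucosidase, -0.08, Idua, alpha-iduronidase, -0.16, and Gaa, the glucosidase that degrades glycogen, -0.19. Glb1 shares exons with Tmppe on the same strand, which had 0 to 1 counts. Arsb, the sulfatase of dermatan and chondroitin sulfate, was not called (log2FC = -0.93 ± 0.41 (SE), adjusted p = 0.122), with 4.68 to 16.6 CPM in WT and 3.43 to 5.60 CPM in Ucp1Δ/Δ mice. Its highest value came from WT replicate 2, and the other WT mice lay between 4.68 and 6.12 CPM. Without that mouse its log2FC was -0.37 (adjusted p = 0.494, edgeR).

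Galns and Manba, a keratan sulfate sulfatase and beta-mannosidase, were not tested. Galns was 4.08, 1.79, 0.668 and 2.03 CPM in WT and 3.54, 6.53, 6.27 and 7.73 CPM in Ucp1Δ/Δ mice. Ucp1Δ/Δ replicate 1 lay below WT replicate 1, and the other Ucp1Δ/Δ mice lay above all WT mice. It was higher where low counts were kept (log2FC 1.52, adjusted p = 0.0131, edgeR) and with DESeq2 (log2FC 1.51, adjusted p = 0.0493). Manba was 2.04, 0.896, 0.334 and 0.507 CPM in WT and 1.06, 0.622, 1.67 and 0.858 CPM in Ucp1Δ/Δ mice, mostly under the floor, and no difference was detectable at this depth.

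Grn and Lgmn had the smallest adjusted p of the set. Grn (ENSMUSG00000034708, chromosome 11, 102430315 to 102437048, plus strand) encodes progranulin, a secreted protein that is cut into granulins in the lysosome and is needed for its function. Its level was 212, 246, 316 and 158 CPM in WT and 717, 610.5, 615 and 498 CPM in Ucp1Δ/Δ mice. Every Ucp1Δ/Δ mouse was well above the highest WT mouse, replicate 3 (log2FC = 1.39 ± 0.21 (SE), adjusted p = 0.00019). Exons of Grn overlap those of Fam171a2 on the opposite strand, which had 2 to 9 counts in WT and 3 to 25 in Ucp1Δ/Δ mice, far fewer than Grn.

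Lgmn (ENSMUSG00000021190, chromosome 12, 102394084 to 102439813, minus strand) encodes legumain, the protease that cuts after asparagine and matures several cathepsins. It showed the largest log2FC among the 32 tested, rising from 3.06, 5.82, 3.34 and 4.05 CPM in WT to 13.8, 20.2, 10.0 and 13.7 CPM in Ucp1Δ/Δ mice (log2FC = 1.83 ± 0.31 (SE), adjusted p = 0.000566). The lowest Ucp1Δ/Δ mouse, replicate 3, was above the highest WT mouse, replicate 2, and Ucp1Δ/Δ replicate 2 was the highest. With 6 to 13 counts in WT and 24 to 65 in Ucp1Δ/Δ mice, Lgmn passed the low-count filter only through the Ucp1Δ/Δ mice. It was not tested where 10 counts were required in every mouse, so its place at the top depends on the filter.

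Ppt1 (ENSMUSG00000028657), which removes palmitate from proteins, was 11.7, 14.3, 15.7 and 11.7 CPM in WT and 17.7, 23.6, 19.2 and 19.7 CPM in Ucp1Δ/Δ mice. The genotypes did not overlap, yet the gene missed the threshold (log2FC = 0.58 ± 0.21 (SE), adjusted p = 0.0612). Acp2 (ENSMUSG00000002103), the lysosomal acid phosphatase, was 19.9, 39.0, 31.1 and 26.8 CPM in WT and 33.3, 38.9, 48.5 and 47.6 CPM in Ucp1Δ/Δ mice, with overlap (log2FC = 0.52 ± 0.22 (SE), adjusted p = 0.107), and it was higher without WT replicate 2 (adjusted p = 0.0301). Tpp1, tripeptidyl peptidase, had a log2FC of -0.01 and Acp5, the tartrate-resistant acid phosphatase used as a marker of osteoclasts and some macrophages, a log2FC of -0.31, and neither was called.

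**Figure D3:**
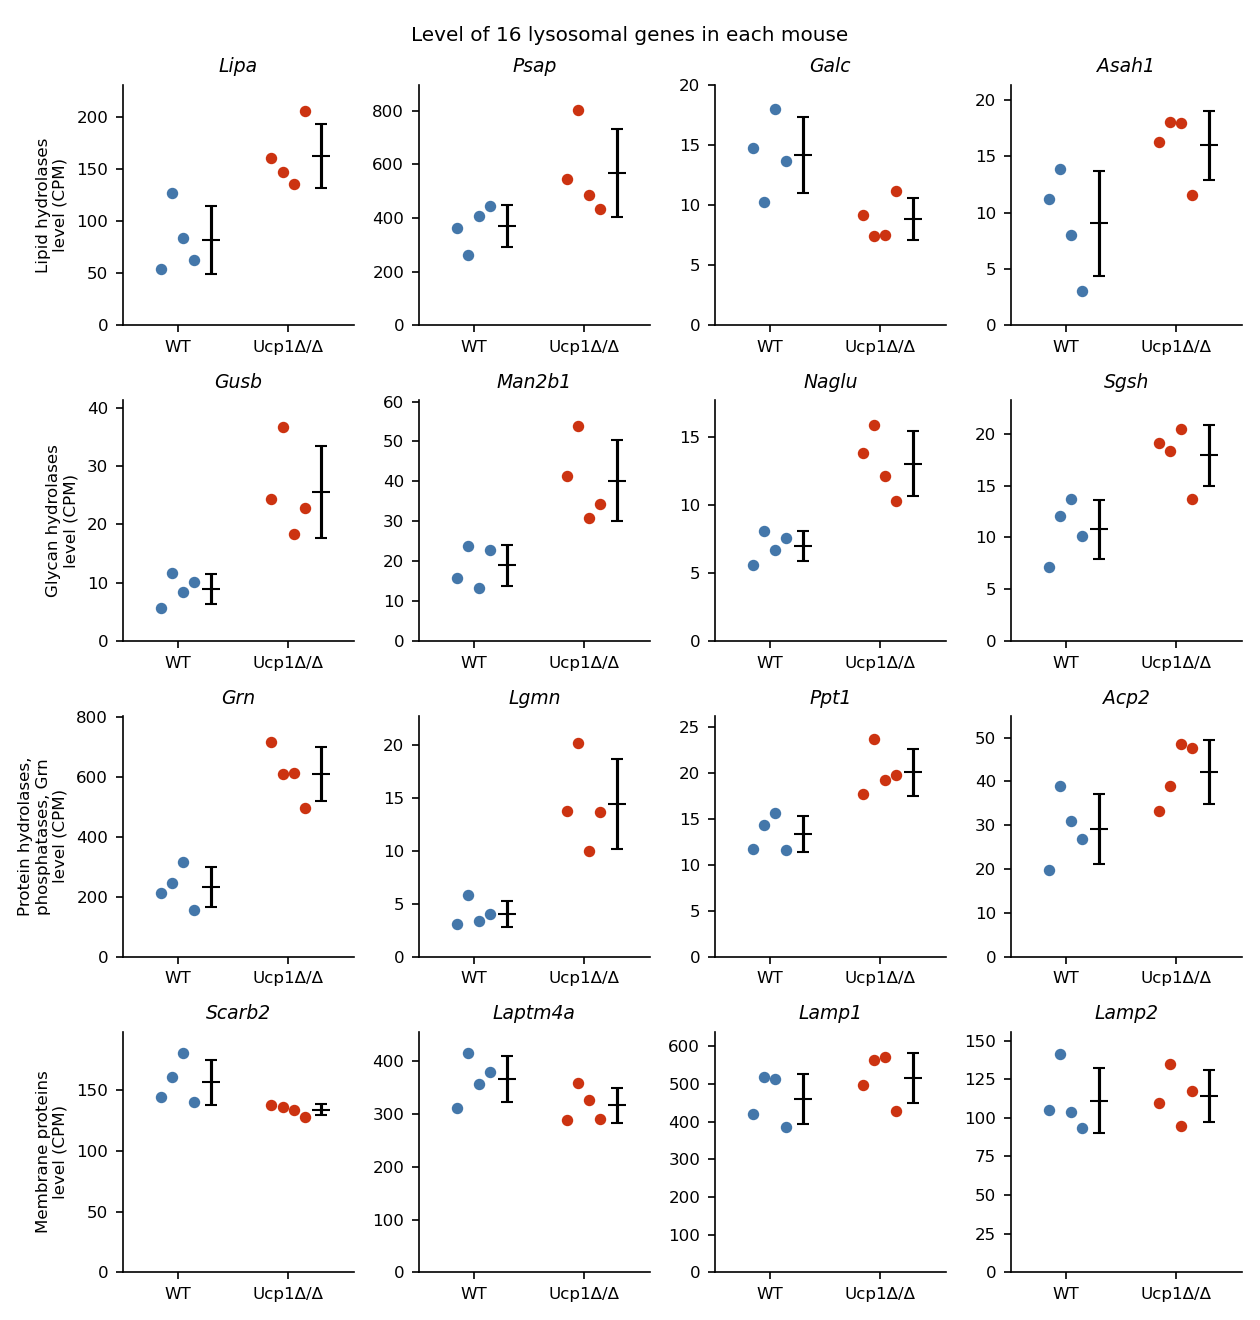
Level in CPM of 16 lysosomal genes in each mouse, 1 row per role group with the 4 genes of smallest adjusted p. Points are mice (blue WT, red Ucp1Δ/Δ), black bars the mean and SD of 4 mice, and each axis starts at 0. Lipa, Gusb, Man2b1, Naglu, Sgsh, Grn and Lgmn show no overlap between genotypes and were called, Ppt1 and Scarb2 show no overlap and were not called.

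None of the 5 membrane proteins was called, in either direction, by edgeR or in any other fit, and 0 of them had an unadjusted p under 0.05. Among all genes tested 13.3% were higher and 7.63% lower, so with 5 genes an absence of calls is not read as a trait of the group. Lamp1 (ENSMUSG00000031447), with Lamp2 the main glycoprotein of the lysosomal membrane, was 419.6, 518, 512 and 386 CPM in WT and 497, 562, 571 and 429 CPM in Ucp1Δ/Δ mice (log2FC = 0.17 ± 0.17 (SE), adjusted p = 0.542). Lamp2 (ENSMUSG00000016534) was 105, 142, 104 and 93.7 CPM in WT and 109, 135, 94.4 and 117 CPM in Ucp1Δ/Δ mice (log2FC = 0.04 ± 0.18 (SE), adjusted p = 0.913). Both overlapped widely, and the 95% interval of the log2FC ran from -0.19 to 0.52 for Lamp1 and from -0.35 to 0.42 for Lamp2.

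Scarb2 (ENSMUSG00000029426), or LIMP-2, the receptor that carries glucocerebrosidase to the lysosome, was the only gene of the set with every Ucp1Δ/Δ mouse below every WT mouse, at 144, 160.4, 181 and 139.8 CPM in WT and 138, 136, 133 and 128 CPM in Ucp1Δ/Δ mice. The gap was small, and the gene was not called (log2FC = -0.23 ± 0.16 (SE), adjusted p = 0.349). Laptm4a (ENSMUSG00000020585), a small transmembrane protein of late endosomes and lysosomes, was 312, 416, 357 and 379.9 CPM in WT and 289.8, 359, 326 and 291 CPM in Ucp1Δ/Δ mice, with overlap (log2FC = -0.21 ± 0.16 (SE), adjusted p = 0.399). Cln3, the membrane protein mutated in juvenile Batten disease, had a log2FC of -0.0039 with a 95% interval from -0.71 to 0.71.

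Over the 32 genes tested, all Ucp1Δ/Δ mice were above all WT mice in 9 and below them in 1, beside 14.4% and 9.37% of all genes tested. The mice of a genotype also differed among themselves in a shared way. WT replicate 2 was the highest WT mouse for 22 of the 32 lysosomal genes, whereas it was highest for 35.1% of all genes. Ucp1Δ/Δ replicate 2 was the highest of its genotype for 17 of the 32, against 25% of all genes, and for 4 of the 7 genes that rose. The median coefficient of variation over the genes was 26.7% in WT and 19.0% in Ucp1Δ/Δ mice, close to the 25.4% and 18.9% of all genes.

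**Figure D4:**
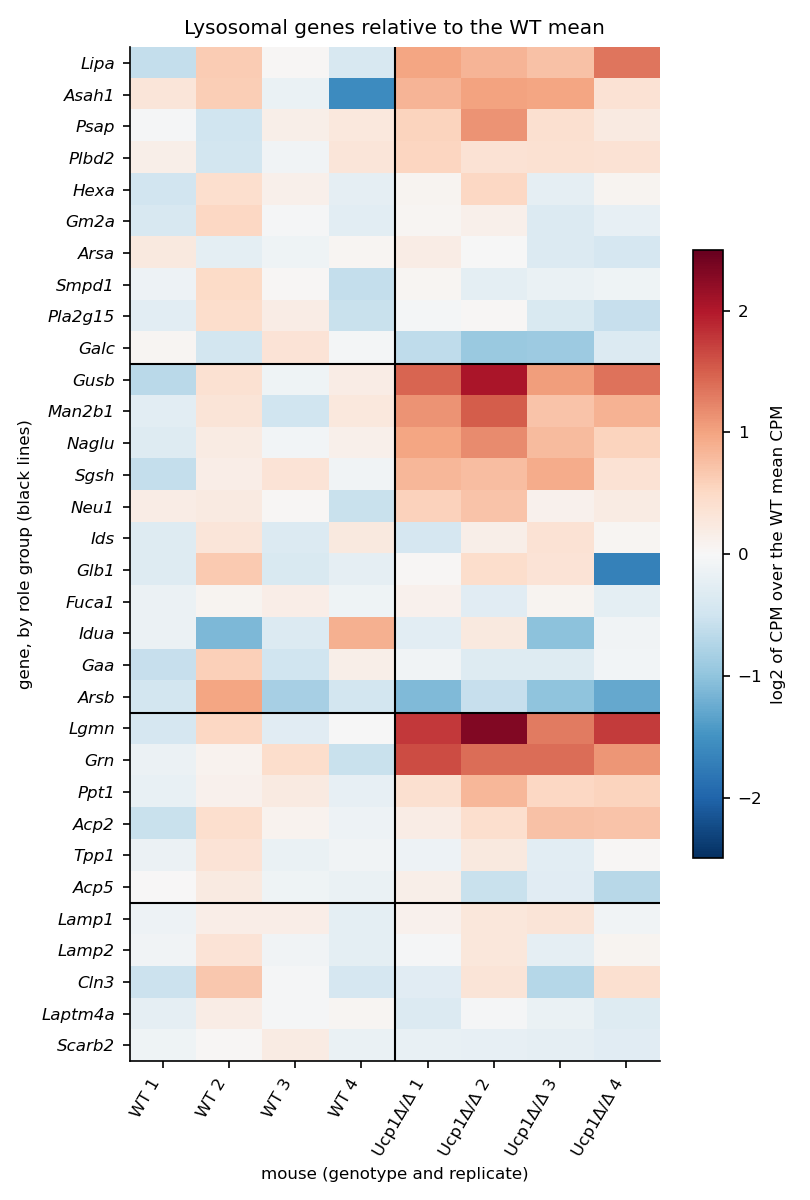
Level of the 32 lysosomal genes tested in each of the 8 mice, as the log2 of CPM over the WT mean CPM of the same gene. Black lines part the genotypes and the role groups. The 4 Ucp1Δ/Δ columns are red throughout for Lipa, Gusb, Man2b1, Naglu, Sgsh, Lgmn and Grn, and the 5 rows of membrane proteins stay pale in most mice. All 4 Ucp1Δ/Δ mice also lay above the WT mean for Plbd2, Ppt1, Psap, Asah1, Acp2 and Neu1, which were not called.

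Other genes of the lysosome were examined for comparison. Of 35 further lysosomal genes, 29 were tested and 6 rose (20.7% of those tested, 10 without WT replicate 2), with none lower. The 3 of smallest adjusted p were Laptm5, a lysosomal membrane protein of blood cells (log2FC 3.23), Epdr1, ependymin-related protein (0 to 1 counts in WT and 15 to 45 in Ucp1Δ/Δ mice), and Cd63, a tetraspanin (log2FC 1.31). Of the cathepsins, the main lysosomal proteases, 6 of 9 tested rose, among them Ctss (log2FC 4.40), Ctsh (2.13) and Ctsc (1.78), although the broadly expressed Ctsb and Ctsd had log2FC of -0.03 and 0.02 and were not called. Of 17 subunits of the proton pump V-ATPase that were tested, 3 rose and 2 fell. Those that rose were Atp6v0d2, with 0 to 1 counts in WT and 46 to 165 in Ucp1Δ/Δ mice, Atp6v0a1 (log2FC 0.95) and Tcirg1 (log2FC 1.56), and those that fell were Atp6v0e (log2FC -0.71) and Atp6v1d (log2FC -0.69). Among all genes tested, 13.3% were higher and 7.63% lower. Some of the genes that rose, Epdr1 and Atp6v0d2 among them, passed the low-count filter only through their counts in Ucp1Δ/Δ mice. The shares of these lists were not tested against that of the 32 genes.

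Of 12 genes that sort enzymes to the lysosome, none rose and Sort1, the sorting receptor sortilin, fell (log2FC -0.67, adjusted p = 0.0135, edgeR). It was 102, 141, 112 and 116 CPM in WT and 72.5, 65.7, 93.2 and 65.7 CPM in Ucp1Δ/Δ mice, without overlap. The call of Sort1 was lost without Ucp1Δ/Δ replicate 2. Over all genes tested, 13.3% were higher and 7.63% lower. Of the MiT/TFE factors 3 of 4 were tested. Mitf rose (log2FC = 1.36 ± 0.31 (SE), adjusted p = 0.00485), from 16.3, 7.62, 8.35 and 7.60 CPM in WT to 27.6, 24.3, 14.2 and 35.2 CPM in Ucp1Δ/Δ mice, with WT replicate 1 above the lowest Ucp1Δ/Δ mouse. Tfeb was not called (log2FC = 0.75 ± 0.28 (SE), adjusted p = 0.0738) although its genotypes did not overlap, nor was Tfe3 (log2FC = 0.13 ± 0.23 (SE), adjusted p = 0.753). Of the 7 lysosomal genes that rose, 3 had GTCACGTG in a promoter window (Lgmn, Naglu and Sgsh), and of the 23 tested without a call and with a promoter, 4 did (Arsa, Cln3, Glb1 and Lamp1). In Lgmn and Naglu, as in Cln3, the letters lay after the outermost GENCODE start, and in Sgsh they spanned it. The calls of Naglu and Sgsh were lost in 4 and 11 of the 17 other fits, and a link between motif and rise was not tested.

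Markers of other cell types moved between genotypes beside these genes. Among all genes tested, 13.3% were higher and 7.63% lower. Of 14 macrophage markers tested, 13 rose, and their sum (16 markers) was 118 to 190 CPM in WT and 1102 to 1799 CPM in Ucp1Δ/Δ mice. No macrophage marker was at 0 in all mice of either genotype. Several that rose, such as Trem2 (0 to 1 counts in WT) and Cd68 (4 to 10), passed the low-count filter only through Ucp1Δ/Δ mice. Among the stromal markers this was so for Lum (5 to 21 counts in WT). Such genes were tested because they were high in Ucp1Δ/Δ mice, so the shares that rose are partly set by the filter. Of 9 stromal markers, 8 rose (summed level 378 to 580 CPM in WT and 1166 to 2313 CPM in Ucp1Δ/Δ mice), and of 14 brown adipocyte markers 1 rose and 5 fell (15160 to 26390 and 11950 to 17640 CPM). No endothelial marker of 7 was called (244 to 294 and 280 to 351 CPM). Of 12 neutrophil and lymphocyte markers none had enough counts to test, their sums were 4.56 to 13.0 CPM in WT and 7.30 to 17.0 CPM in Ucp1Δ/Δ mice, and 3 were at 0 in all mice. Skeletal muscle markers summed to 27.7 to 1981 CPM in WT and 91.5 to 2762 CPM in Ucp1Δ/Δ mice, with none of 11 called. Ucp1Δ/Δ replicate 2, the highest of its genotype for 17 lysosomal genes, was also the highest for macrophage, stromal and skeletal muscle markers and the lowest for brown adipocyte markers. WT replicate 2, the highest WT mouse for 22 lysosomal genes, had the highest brown adipocyte sum of all mice. Among WT mice it was also highest for macrophage markers, but not for stromal (475 CPM) or skeletal muscle markers (130 CPM). In bulk samples a change in the number of cells of a type cannot be told apart from a change in the RNA of each cell, and the part of the macrophage and stromal markers in the lysosomal differences was not tested.

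**Figure D5:**
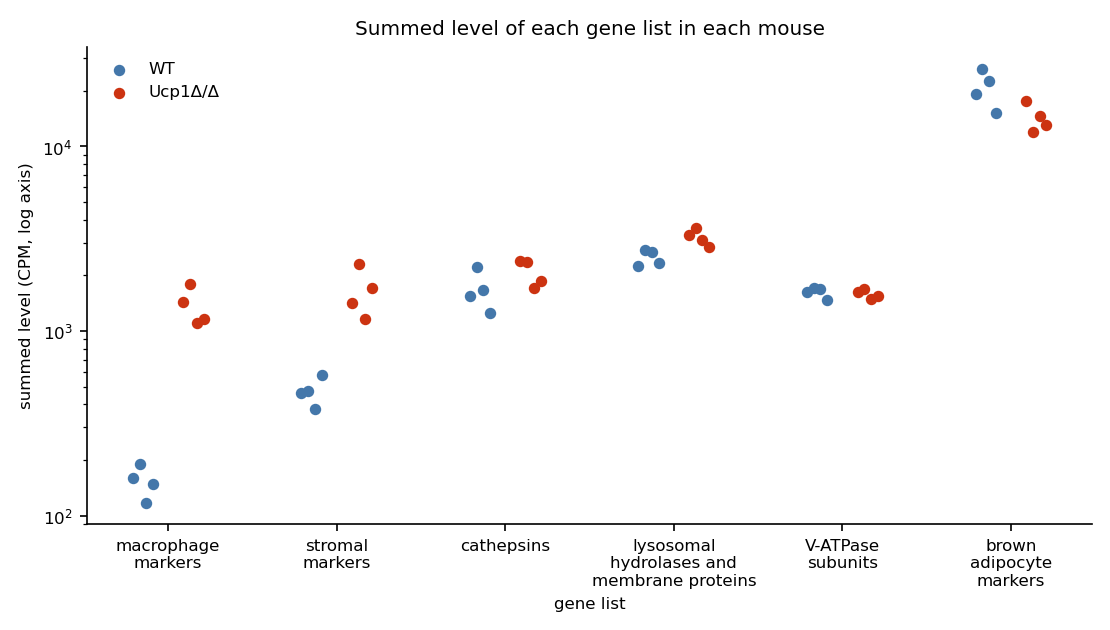
Summed level of 6 gene lists in each mouse, in CPM on a log axis (blue WT, red Ucp1Δ/Δ). Macrophage markers are apart between genotypes, at 118 to 190 CPM in WT and 1102 to 1799 CPM in Ucp1Δ/Δ mice, and stromal markers are also apart. The 35 lysosomal genes are apart by a much smaller step (2254 to 2749 against 2839 to 3604 CPM), and the cathepsins, V-ATPase subunits and brown adipocyte markers overlap.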

How the data were processed

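BAT RNA of 4 WT and 4 Ucp1Δ/Δ mice was sequenced with a digital mRNA-seq service from a single end. According to their methods, the authors used bbduk for trimming, STAR for alignment to mm10 and HTSeq-counts for counting per Ensembl gene, and the submitters' processing notes name Trimmomatic, HISAT2, DESeq2 and GRCm38 instead. Strand use in counting and the annotation release were not given in the sources used here. The authors deposited whole-number counts per gene and mouse, without normalization, which were used for all main results. They also deposited log2 values, the log2 of scaled counts plus 1, used for 1 alternative.

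Samples were assigned from their titles. Members and gene lists were chosen with earlier results of these data known. Counts were analysed in R 4.3.3 with edgeR 4.0.16 (filterByExpr at its defaults, TMM scaling, quasi-likelihood test on genotype, Benjamini-Hochberg adjustment over 8930 genes). CPM used TMM-scaled library sizes. The SE is the log2FC over the square root of F. An adjusted p of 0.05 was the threshold. A p sets the genotype difference against the spread between these mice, which edgeR estimates in part over all genes. Values in every mouse were given for the 4 genes of smallest adjusted p in each role group and for those not tested, and for other lists at most 3 genes of smallest adjusted p and any called in the opposite direction. Ctsb and Ctsd were named after values were seen.

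Positions and exon overlaps came from GENCODE annotation of GRCm38, promoter sequences from RefSeq (GRCm38.p6), where any window of a gene with several starts counted. Alternatives (limma 3.58.1, DESeq2 1.42.0) were other scaling, filters, tests and thresholds, removal of mitochondrially encoded genes, a replicate block and omission of each mouse. Between mice of a genotype the chi-square per degree of freedom was 4.69 to 23.2, so none was counted as a duplicate. In counts simulated for 8930 genes, the test recovered 60.2% of changes at a log2 of 1 and 98.9% at a log2 of 2, with 6.45% of calls false. Far fewer genes were changed in the simulation than the 21% called in the data, so these shares hold for that setting only. Counts cover sampling of reads only, and 1 gene of the further lysosomal list was not analysed here.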

Additional observations from a re-analysis of the deposited data

Results flagged for a closer look

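In 2 genes, 1 mouse stood apart from the other 3 of its genotype, by a gap to its nearest neighbour that exceeded Dixon's 95% critical share of the group's range. For Plbd2, Ucp1Δ/Δ replicate 1 was at 87.7 CPM while the other 3 lay between 78.1 and 79.4 CPM, a gap of 0.859 of the range. For Glb1, WT replicate 2 was at 13.0 CPM while the other 3 lay between 6.34 and 7.09 CPM, a gap of 0.849 of the range. Chance alone marks about 1 in 20 groups, or 3.5 of the 70 examined, so 2 is not above that number.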

How the results depend on the processing

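The calls of Lipa, Man2b1, Gusb, Lgmn and Grn held in every other fit that tested them, and Pnpla2 stayed between -2.68 and -2.48. For the set as a whole, genes higher numbered 6 to 12 over the other settings (12 with total counts only) and 5 to 9 with each mouse left out, and genes lower 1 with limma voom and 0 to 1 with a mouse left out. Lipid genes higher were 4 with total counts only or with a filter of 1 count in any mouse, 2 with a filter of 10 counts in every mouse, DESeq2, voom or the replicate block, 0 at a log2FC of 1, and 1 to 2 with a mouse left out, and lipid genes lower 1 with voom and 0 to 1. Glycan genes higher were 2 at an adjusted p of 0.01 or a log2FC of 1, and 2 to 4 with a mouse left out. The protein group had 4 higher with total counts only. Further lysosomal genes were 5 to 10 higher and 0 to 2 lower with a mouse left out, and 1 was lower with size factors or the Wald test of DESeq2, the filter of 1 count in any mouse, voom or the block. Over all genes, 1191 were higher (746 with the filter of 10 counts) and 681 lower (404 with total counts only, 449 with that filter, 400 to 851 with a mouse left out). The causes of these shifts were not tested.

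Uncalled genes changed sign. With total counts only the log2FC was 0.025 for Smpd1, 0.038 for Arsa, 0.069 for Gm2a, 0.055 for Fuca1, 0.14 for Tpp1 and 0.14 for Cln3. With voom it was 0.048 for Gm2a, 0.098 for Gaa, 0.069 for Tpp1 and 0.13 for Cln3, and at a minimum of 10 counts everywhere 0.063 for Tpp1 and 0.070 for Cln3. Glb1 was at -0.027 with size factors from DESeq2, -0.019 under the looser filter of 1 count, -0.038 with DESeq2's test, -0.033 with the replicate block and -0.16 with limma trend on the deposited log2 values, an alternative chosen after seeing the data. With a mouse left out, the ranges were -0.28 to 0.079 for Smpd1, -0.013 to 0.29 for Hexa, -0.20 to 0.14 for Gm2a, -0.35 to 0.069 for Gaa, -0.18 to 0.31 for Glb1, -0.41 to 0.28 for Idua, -0.053 to 0.21 for Ids, -0.11 to 0.11 for Tpp1, -0.045 to 0.17 for Lamp2 and -0.15 to 0.29 for Cln3.

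The labels give same-numbered mice of the genotypes nothing in common but the number. They correlated at -0.087, -0.20, 0.30 and 0.24 in their deviations, and 1 of 4 correlated best with its own number. With the replicate block 7 lysosomal genes were higher and 0 lower. Low counts limited Gla, Manba and Galns.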
